A study of Mus musculus with 15 samples.

Results

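The GIMAP genes encode the GTPases of immunity-associated proteins, a family of lymphocyte GTPases. The 8 genes described here, Gimap1, Gimap3, Gimap4, Gimap5, Gimap6, Gimap7, Gimap8 and Gimap9, were chosen by name from 55536 annotated genes in the deposited gene counts, whatever their values, and all 8 passed the filter on low counts that left 17366 genes for testing. The counts came from 15 RNA-seq libraries of CD8+ T cells from OT-I mice (strain OT-1 Tg C57BL/6J), whose T cells carry a transgenic receptor for an ovalbumin peptide on a Rag-deficient background, so that almost all share 1 specificity. Naive libraries (5) were made from cells purified from OT-I mice without transfer. For the Ag libraries (5), OT-I cells were transferred into wild-type C57BL/6J recipients that received the peptide with a control rat IgG. For the Ag+Costim libraries (5), recipients received the peptide with agonist antibodies to OX40 and 4-1BB, receptors of the tumor necrosis factor receptor family that deliver costimulatory signals. Transferred cells were sorted from spleen and lymph nodes at day 4 by the labels, and the study's methods give a slightly shorter time. Mice of both sexes and a range of ages were used, and the labels give no age per library. Since Naive cells were not transferred, effects of transfer and of antigen cannot be told apart in the comparisons with Naive. The labels do not say which libraries came from separate animals, so p-values measure the spread between these samples.

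GIMAP proteins share a guanine nucleotide-binding domain of the AIG1 type, related to that of septins, and several are anchored in intracellular membranes by a hydrophobic tail. They are best known for the survival and quiescence of peripheral lymphocytes: mice and rats that lack Gimap5 lose naive T cells, and Gimap1 is needed to maintain mature T and B cells. Gimap3 is the closest relative of Gimap5, Gimap6 binds the autophagy protein GABARAPL2, Gimap4 has been tied to T cell death, GIMAP7 can stimulate the GTPase activity of other family members, and Gimap8 carries several GTPase domains in 1 protein.

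The 8 genes lay within 123.618 kb of chromosome 6 (mm10, chr6:48647234-48770851), a stretch that holds 13 annotated genes in GENCODE M21. In order along the chromosome they were Gimap8 (chr6:48647234-48660875), Gimap9 (chr6:48676129-48679114), Gimap4 (chr6:48684549-48692060), Gimap6 (chr6:48701582-48708225), Gimap7 (chr6:48718621-48724636), Gimap1 (chr6:48739054-48743795), Gimap5 (chr6:48746197-48754210) and Gimap3 (chr6:48764464-48770851). Gimap6 and Gimap3 are on the − strand and the other 6 on the + strand. All 8 genes code for the G1 motif (P-loop) of GTPases, which holds the phosphates of the bound nucleotide. Its coding sequence in the longest annotated coding transcript of each gene follows, 5′ to 3′ on the coding strand, to let the members be compared there. Capitals mark the last 3 codons, for glycine, lysine and serine or threonine.
Gimap1 (chr6:48742552-48742575, + strand): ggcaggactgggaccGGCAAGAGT
Gimap3 (chr6:48765887-48765910, − strand): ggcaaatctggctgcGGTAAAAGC
Gimap4 (chr6:48690421-48690444, + strand): ggaaaaactggagcaGGAAAGAGT
Gimap5 (chr6:48752594-48752617, + strand): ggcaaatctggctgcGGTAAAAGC
Gimap6 (chr6:48702750-48702773, − strand): gggaaaacaggaagcGGGAAAAGT
Gimap7 (chr6:48723524-48723547, + strand): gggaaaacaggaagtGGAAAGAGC
Gimap8, GTPase domain 1 (chr6:48650256-48650279, + strand): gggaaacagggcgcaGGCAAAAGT
Gimap8, GTPase domain 2 (chr6:48656119-48656142, + strand): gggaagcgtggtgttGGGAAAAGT
Gimap8, GTPase domain 3 (chr6:48658746-48658769, + strand): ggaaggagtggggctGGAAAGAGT
Gimap9 (chr6:48677523-48677546, + strand): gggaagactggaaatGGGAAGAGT
Gimap3 and Gimap5 had the same 24 bases there, and their whole coding sequences were identical at 87.92% of aligned bases, while the other pairs ranged from 52.93% to 64.95%. The next most alike pair was Gimap7 and Gimap9. Gimap8 coded for 688 residues and held 3 such motifs, in exons 3, 5 and 6 of 6, and in the other 7 genes, of 291 to 328 residues, the motif lay in the last exon.

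Likeness between copies bears on the counts, since reads were 50 bases long. Of the 50-base windows in Gimap3 transcripts, 7.52% also occurred in Gimap5, and 4.53% of those of Gimap5 occurred in Gimap3, so their counts are slightly uncertain against each other. Gimap1 was the most exposed member: 35.5% of its windows were shared with another gene, chiefly with Gimap1os, a noncoding transcript on the opposite strand. The library kit does not mark strand, so reads of Gimap1 and Gimap1os cannot be told apart where they overlap. In Gimap4, Gimap8 and Gimap9 no window was shared, and in Gimap6 and Gimap7 0.170% and 1.39% were.

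Total counts per library ran from 4865952 to 25280667, with a median of 14967616, and each GIMAP gene had at least 303 counts in every library. A pair of libraries stood apart. In Ag 3, 16.9% of sequenced reads ended in a gene count, where Ag 1, 2, 4 and 5 had 37.4% to 53.6%, and summed markers of B cells and erythroid cells reached 1731 and 1235 CPM (a gene's counts per 1000000 counts of its library), the highest of all 15. B cell markers, 9 in all, were also raised in Ag 1 and Ag 4, at 594 and 707 CPM, against 56.0 to 306.5 CPM in the other 12 libraries, and B cells express GIMAP genes too. In Naive 5, summed myeloid markers reached 1046 CPM, against at most 223 CPM in any other library, and all 9 markers of the list were detected in each group. Most of that sum was S100a8 and S100a9, at 429 and 403 CPM, while Csf1r, Fcer1g and Tyrobp were higher in Naive 2. The input amount recorded for library preparation, with no unit stated, was 1.4 for Ag 2 and 1.8 for Ag 5, and between 7 and 10 for the others. The 7 CD8+ T cell markers were detected throughout, with a summed level of 5640 to 9358 CPM in Naive, 4519 to 8532 CPM in Ag and 4779 to 5827 CPM in Ag+Costim. Lane 2 carried the 5 Ag libraries with Ag+Costim 1 to 3, and lane 3 the 5 Naive libraries with Ag+Costim 4 and 5, so that lane and group cannot be told apart between Ag and Naive. In bulk RNA, fewer cells of a type and less RNA per cell cannot be told apart.

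GIMAP transcripts were abundant in all 3 groups. Together the 8 genes took 0.292% to 0.514% of all counts. Gimap4 averaged 1352 CPM over the 15 libraries, and only 50 of the 17366 genes tested averaged more. Levels of different genes are comparable only per length, so counts of each transcript were divided by its length, which gives CPM per kilobase. On this scale Gimap4 was the highest in each group, at 824 ± 68.6 for Naive, 950 ± 97.8 for Ag and 1028 ± 62.4 for Ag+Costim (mean ± SD, n = 5), with no overlap with the next gene. Gimap6 and Gimap3 followed, at 479 ± 81.0 and 463 ± 99.6 in Naive, and their ranges overlapped in each group. The order below Gimap4 depended on the length used. Gimap8 was the lowest in each group, at 41.6 ± 8.75 for Naive, 30.5 ± 17.5 for Ag and 25.6 ± 2.90 for Ag+Costim, and did not overlap its neighbour in the order on this scale. Between these, Gimap1, Gimap5, Gimap9 and Gimap7 ran from 213 ± 29.1 to 132 ± 32.6 in Naive, and each overlapped the next. Gimap7 was the 7th of 8 in Naive and the 4th in both Ag and Ag+Costim. Its range overlapped those of both Gimap3 and Gimap1 in the latter groups. With gene counts divided by the length of all exons of a gene joined, Gimap3 came before Gimap6 in each group, at 383 and 233 in Naive, with ranges that still overlapped. Gimap7 was then the 6th in Naive and again the 4th in Ag and Ag+Costim, and Gimap8 was again the lowest but overlapped Gimap5 in Naive and Ag.

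**Figure D1:**
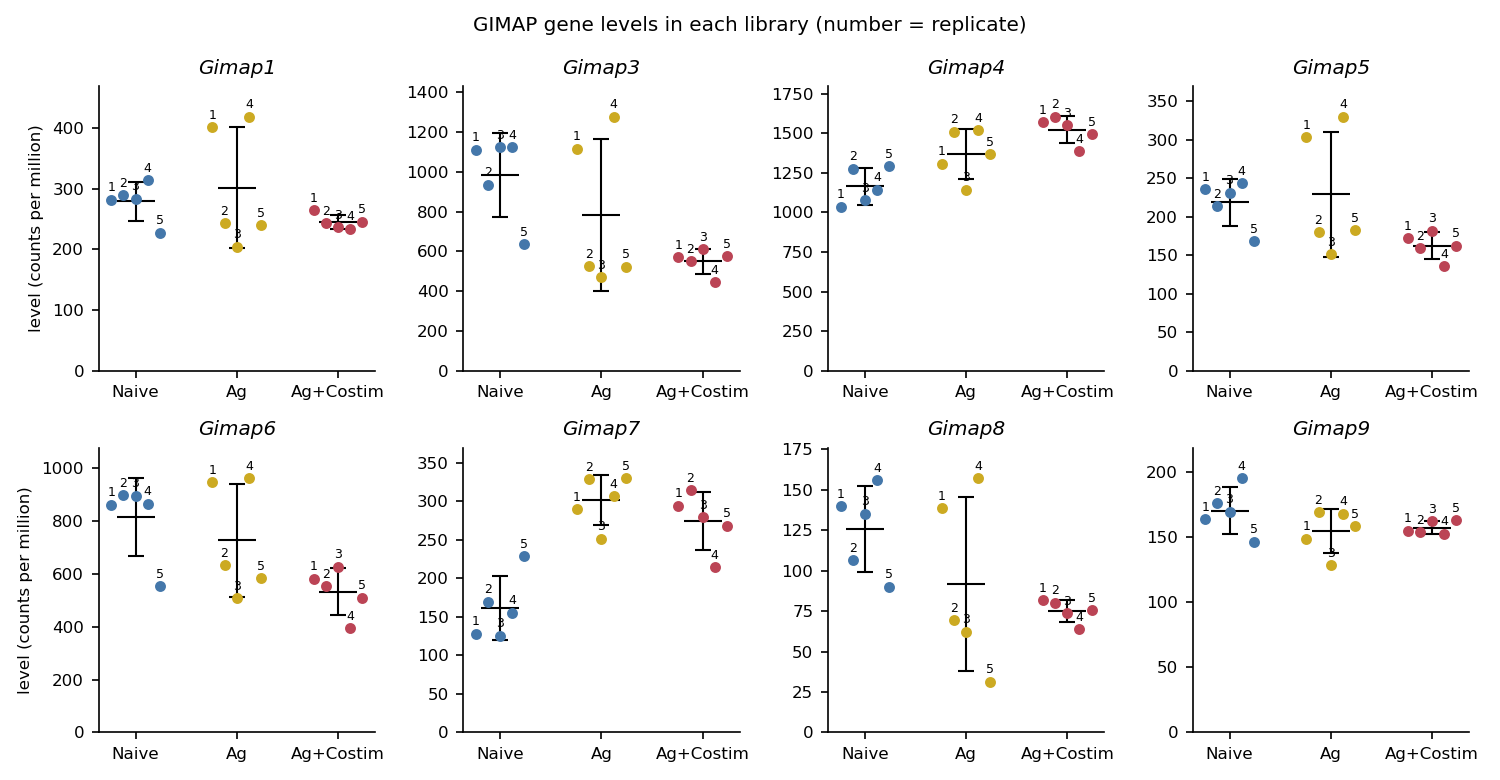
Level of each GIMAP gene in CPM (vertical axes, from 0) in the 5 libraries of each group. Points are libraries with their replicate number, and bars show the mean ± SD. Gimap7 is higher in the 5 Ag libraries (252 to 330) than in the 5 Naive libraries (126 to 229), while Gimap3, Gimap6, Gimap5, Gimap1 and Gimap8 spread widely within Ag, with Ag 1 and Ag 4 on top.

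The comparison of Ag with Naive asks what antigen without added costimulation did to the family. Gimap7, known for acting on the GTPase activity of other GIMAP proteins, was the member that rose. Its level was 128, 170, 126, 156 and 229 CPM in Naive 1 to 5 and 290.0, 329, 252, 307 and 330.4 CPM in Ag 1 to 5. Every Ag library was above every Naive library, with Naive 5 the nearest. The fold change was 1.99 (log2 fold change 0.99 ± 0.18 SE, edgeR FDR = 0.0118). That made 1 of 8 members higher and none lower at an FDR under 0.05, against 3.05% and 3.66% of all genes tested. The groups did not overlap for 1 of 8 members, Gimap7, against 3.63% of all genes in either direction.

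Gimap4, the most abundant member, was at 1037, 1277, 1076, 1144 and 1291 CPM in Naive 1 to 5 and at 1308, 1511, 1143, 1518 and 1370 CPM in Ag 1 to 5. Ag 3, the shallow library, was the low one and lay within the Naive range, and the groups overlapped. The log2 fold change was 0.33 ± 0.12 with an FDR of 0.0982, so that Gimap4 was not called. DESeq2 and limma's voom both called it higher (FDR = 0.0397 and 0.0255), and so did edgeR without Naive 5 (log2 fold change 0.40, FDR = 0.0337) and without both Ag 3 and Naive 5 (0.50, FDR = 0.00825).

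No member was called lower than in Naive by edgeR, DESeq2 or voom. The other 6 had log2 fold changes from −0.41 ± 0.29 for Gimap8 to 0.18 ± 0.14 for Gimap1, with FDRs from 0.337 to 0.830. At an unadjusted p under 0.05 edgeR had 2 of the 8, Gimap7 and Gimap4, a share near the 28.7% of all genes, and DESeq2 and voom each called these same 2 at an FDR under 0.05. Over all genes, DESeq2 called 7.24% higher and 8.13% lower, and voom 9.82% and 10.2%. The median log2 fold change of the 8 was 0.05, beside 0.08 over all genes tested. The Gimap7 call was kept in each of 15 fits that left out 1 library. It was lost when only these 10 libraries were fitted (FDR = 0.125), with no filter on low counts (FDR = 0.0934) and with lane as a term (log2 fold change 0.72, FDR = 0.626), a fit that can separate lane from Ag only through the Ag+Costim libraries.

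The comparison of Ag+Costim with Naive covers antigen and the costimulatory antibodies together, and here members were called in both directions. Gimap7 and Gimap4 rose, Gimap3 and Gimap6 fell, and Gimap1, Gimap5, Gimap8 and Gimap9 did not pass the test. That made 2 of 8 members higher and 2 of 8 lower, in a comparison where 21.0% of all genes were called higher and 23.6% lower, so the members' share was near that of all genes. The median log2 fold change was −0.15 over the 8 and −0.08 over all genes.

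Among the genes that rose, Gimap7 was at 295, 315, 279, 215 and 268 CPM in Ag+Costim 1 to 5. Ag+Costim 4 was the low library, under Naive 5, so the groups overlapped by that pair alone. The fold change was 1.87 (log2 fold change 0.90 ± 0.18, FDR = 0.00485). Gimap4 was at 1571, 1606, 1551, 1388 and 1493 CPM, and every Ag+Costim library was above every Naive library. Its fold change was 1.45 (log2 fold change 0.53 ± 0.12, FDR = 0.00703). Both calls were kept in each of 15 fits that left out 1 library.

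Among the genes that fell, Gimap3, the relative of Gimap5, was at 1112, 936, 1123, 1123 and 637 CPM in Naive 1 to 5 and at 570.0, 551, 611, 445 and 575 CPM in Ag+Costim 1 to 5. The groups did not overlap, although Naive 5 lay close to the Ag+Costim libraries. The level in Ag+Costim was 62.3% of that in Naive (log2 fold change −0.68 ± 0.23, FDR = 0.0303). Gimap6, the partner of GABARAPL2, was at 862, 897, 896, 866 and 553 CPM in Naive and at 582, 553, 628, 394 and 509.7 CPM in Ag+Costim. Naive 5 lay within the Ag+Costim range, and the other 4 Naive libraries were above all 5 Ag+Costim libraries. The level was 72.9% of that in Naive (log2 fold change −0.46 ± 0.17, FDR = 0.0410).

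The calls of the lower genes depended on single libraries. The Gimap3 call was lost in 8 of 15 fits that left out 1 library, without Naive 1, 3 or 4, Ag 2, or Ag+Costim 1, 2, 4 or 5, with an FDR of up to 0.153. The Gimap6 call was lost in 9 of 15, for the same 8 and Naive 2, with an FDR of up to 0.289, and with the replicate block (FDR = 0.0595). Within lane 3, where 2 Ag+Costim libraries met the 5 Naive libraries, log2 fold changes were −0.78 for Gimap3 (FDR = 0.0463), −0.68 for Gimap6 (FDR = 0.0472), 0.47 for Gimap4 (FDR = 0.0493) and 0.74 for Gimap7 (FDR = 0.0544). With lane as a term over all libraries, the 4 genes had the same directions and FDRs from 0.0608 to 0.0988. Both lower calls were also lost with no filter on low counts (FDR = 0.266 for Gimap3 and 0.473 for Gimap6) and with library sizes taken over all annotated genes (FDR = 0.0580 and 0.0974).

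Of the members that were not called, Gimap8, the gene of 3 GTPase domains, was at 140, 106, 135, 156 and 90.1 CPM in Naive and at 81.6, 80.2, 73.6, 64.0 and 75.4 CPM in Ag+Costim. The groups did not overlap, but with a log2 fold change of −0.59 ± 0.29 the FDR was 0.103. It was called lower without Ag 5 (FDR = 0.0324, with 28.1% of all genes lower), where its level was 31.4 CPM against 62.3 to 157 CPM in the other Ag libraries. It was also called lower with voom (FDR = 0.000101), with only the 10 libraries of the comparison (FDR = 0.00231) and within lane 3 (FDR = 0.0497), fits that called 41.3%, 35.3% and 20.6% of all genes lower. In all, 3 of 8 members did not overlap between these groups, Gimap4, Gimap3 and Gimap8, against 45.6% of all genes. Gimap5 and Gimap1, needed to maintain mature lymphocytes, had log2 fold changes of −0.27 ± 0.16 (FDR = 0.170) and −0.03 ± 0.14 (FDR = 0.857). Gimap5 was called lower with voom (FDR = 0.00351) and with only the 10 libraries (FDR = 0.0182). Gimap9 had 0.04 ± 0.10 (FDR = 0.757), with all 15 libraries between 129 and 196 CPM.

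Measures of the libraries differed between Naive and Ag+Costim as well. The share of sequenced reads that ended in a gene count was 38.2% to 46.8% in Naive and 51.9% to 52.7% in Ag+Costim. The median summed level of the 7 CD8+ T cell markers was 8416 CPM in Naive and 5465 CPM in Ag+Costim, with Naive 5 (5640 CPM) within the Ag+Costim range. Summed markers of other cells were also lower in Ag+Costim by their medians for CD4+ T cells (4 markers, 19.5 and 6.24 CPM), NK cells (2 markers, 13.0 and 1.31 CPM), erythroid cells (5 markers, 84.1 and 15.3 CPM) and endothelial cells (9 markers, 148 and 54.4 CPM), and the ranges of the last 3 did not overlap. Most of the endothelial sum was Pecam1, an adhesion molecule that naive T cells also express, at 70.5 to 160 CPM in Naive and 30.4 to 59.6 CPM in Ag+Costim. Tek was at 0 in every Ag+Costim library, while Egfl7, Cdh5 and Plvap had higher medians in Ag+Costim than in Naive. Among the CD4+ T cell markers, Cd40lg alone had a lower median in Ag+Costim. Cd4, Zbtb7b and Foxp3 had higher medians there than in Naive. B cell markers had medians of 83.3 and 196 CPM and myeloid markers 70.0 and 118 CPM. The part of these measures in the GIMAP differences was not tested.

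**Figure D2:**
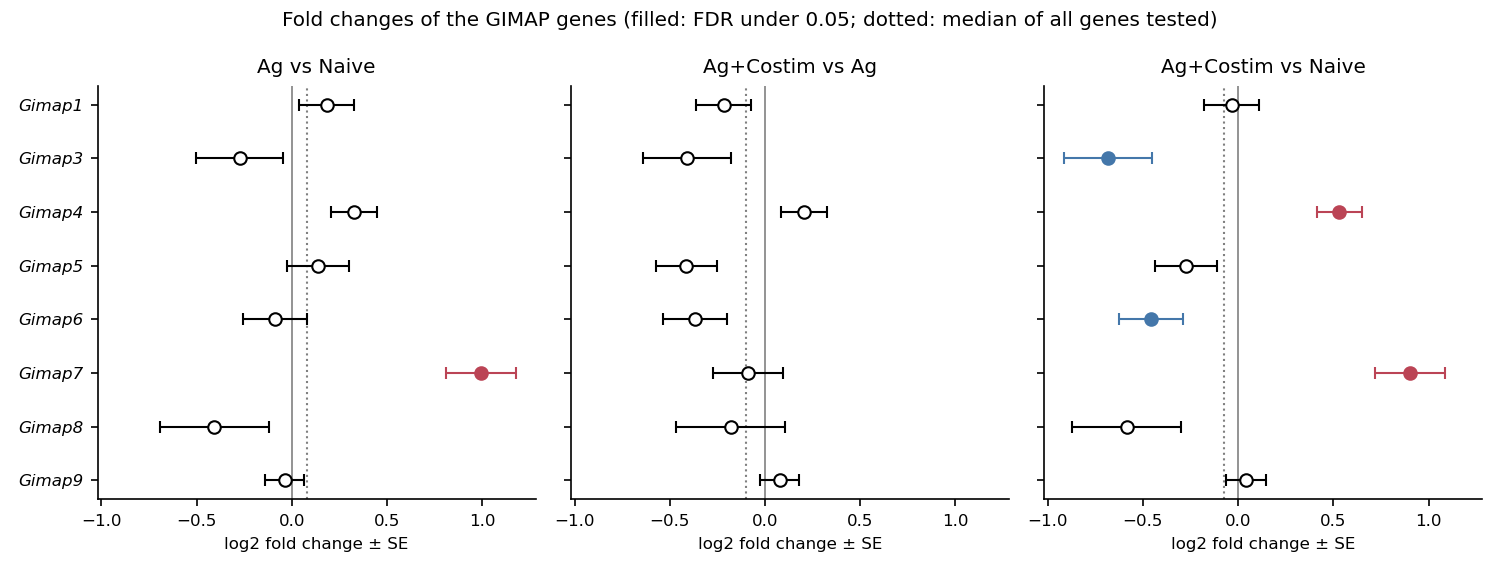
Log2 fold change ± SE (horizontal axes) of each GIMAP gene in the 3 comparisons, from the edgeR fit over 15 libraries. Filled points passed an FDR under 0.05 (red higher, blue lower), and the dotted line is the median of all genes tested. Gimap7 is filled in both comparisons with Naive, Gimap4, Gimap3 and Gimap6 in that of Ag+Costim alone, and none in Ag+Costim against Ag.

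The comparison of Ag+Costim with Ag asks what the costimulatory antibodies added to antigen. Of these libraries, only Ag+Costim 4 and 5 were on lane 3, and Ag 2 and Ag 5 had input amounts of 1.4 and 1.8. Summed B cell markers had a median of 594 CPM in Ag and 196 CPM in Ag+Costim. The part of input amount and of these markers in this comparison was not tested. No GIMAP gene was called by edgeR or DESeq2. The lowest edgeR FDR was 0.129, for Gimap5 (log2 fold change −0.41 ± 0.16), and Gimap5 and Gimap6 (−0.37 ± 0.17) had an unadjusted p under 0.05, as did 26.8% of all genes. Few genes of any kind were called by edgeR here, 0.0288% higher and 0.00576% lower, against 3.82% and 10.8% by DESeq2. With voom and weights for each library, Gimap4 was called higher (log2 fold change 0.32, FDR = 0.00576) and Gimap1, Gimap3, Gimap5, Gimap6 and Gimap8 lower, by 0.39 to 0.68 on the log2 scale with FDRs up to 0.0150. Voom also called 28.8% of all genes higher and 28.7% lower, so 1 and 5 of 8 are to be read against that. None of the 8 separated the groups without overlap, while 7.04% of all genes did. The median log2 fold change of the 8 was −0.20, beside −0.10 over all genes.

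The lack of calls came with a wide spread within Ag. Gimap3 was at 1116, 526, 472, 1278 and 523 CPM in Ag 1 to 5, and Gimap6 at 947, 633, 508, 963 and 585 CPM. Ag 1 and Ag 4 were in or above the Naive range for both genes, and the other 3 lay near the Ag+Costim libraries. Gimap1 was at 401, 244, 205, 419 and 240.3 CPM, Gimap5 at 303, 179.6, 151, 330.0 and 182 CPM, and Gimap8 at 139, 69.2, 62.3, 157 and 31.4 CPM. In each of these 5 genes Ag 1 and Ag 4 were the top 2 libraries of Ag, and for Gimap1, Gimap5 and Gimap6 they were above all 10 libraries of the other groups. The coefficient of variation (SD as a percent of the mean) within Ag was 29.3% to 58.4% for these 5 genes and 10.8% to 11.4% for Gimap7, Gimap9 and Gimap4. Within Ag+Costim it was at most 16.7% for any of the 8.

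Several other measures moved with that spread. The libraries with the 2 lowest input amounts were Ag 2 and Ag 5, and Ag 3 was the shallow one, so Ag 1 and Ag 4 were the Ag libraries without either. Summed B cell markers were at 594 and 707 CPM in Ag 1 and Ag 4, at 101 and 245 CPM in Ag 2 and Ag 5, and at 1731 CPM in Ag 3, where the 5 genes were low. The summed level of 17 genes of naive and quiescent T cells was 7286 and 7524 CPM in Ag 1 and Ag 4, and 2933, 2800 and 2462 CPM in Ag 2, 3 and 5. It ran from 4879 (Naive 5) to 10730 CPM in Naive and from 2287 to 3298 CPM in Ag+Costim. The list holds Klf2 and Foxo1, transcription factors of quiescence, the receptors Il7r, Ccr7 and S1pr1, and Tcf7, Lef1, Bach2 and Satb1, regulators of naive T cells. Summed CD8+ T cell markers were at 8532 and 8309 CPM in Ag 1 and Ag 4 and at 6092, 4519 and 6341 CPM in Ag 2, 3 and 5, and CD4+ T cell markers at 23.4 and 36.8 CPM and at 3.70, 12.1 and 4.61 CPM. Of the CD4+ T cell markers, Zbtb7b and Cd40lg had this order. Cd4 itself did not, at 2.29 and 0.918 CPM in Ag 1 and Ag 4 and 4.52 CPM in Ag 3. Summed endothelial markers were at 255 and 278 CPM in Ag 1 and Ag 4, the highest of all 15 libraries, and at 48.8 to 101 CPM in Ag 2, 3 and 5. Pecam1 alone was at 249 and 276 CPM in Ag 1 and Ag 4. The other endothelial markers were highest of all 15 libraries in Ag 3 (Kdr at 9.25 and Emcn at 9.66 CPM), except Egfl7, highest in Ag 5. Naive 5 had the lowest Naive value of the CD8+ T cell, CD4+ T cell and endothelial sums. The part of input amount, depth, the markers of these cells and naive T cell genes in the spread of the GIMAP genes was not tested.

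**Figure D3:**
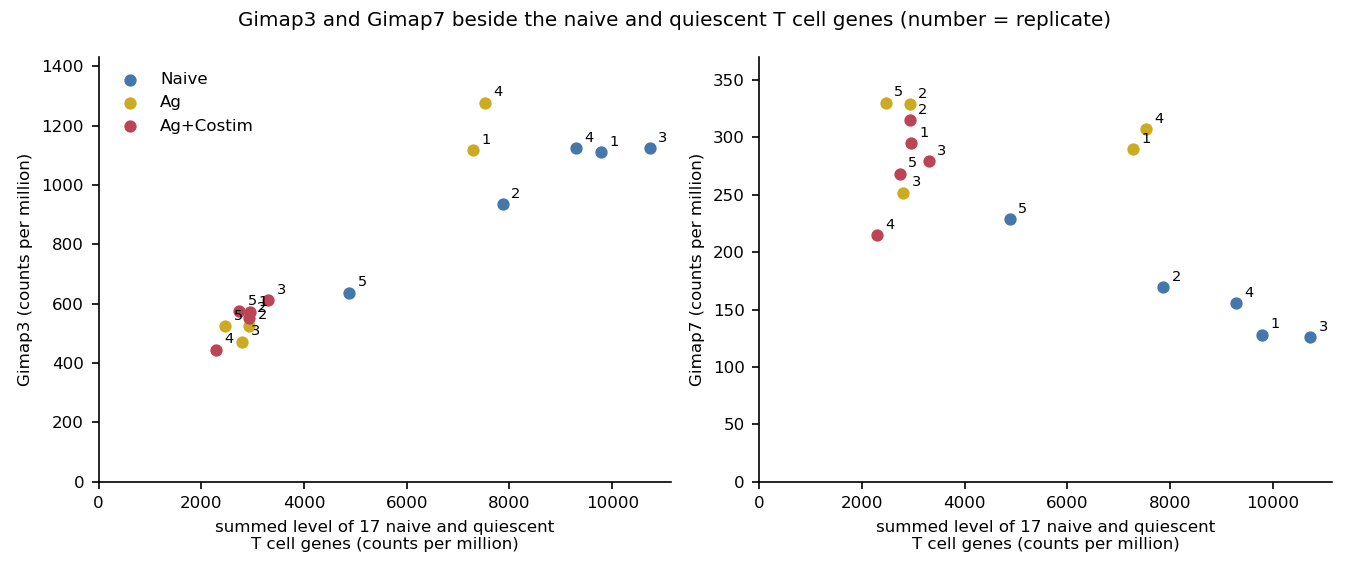
Gimap3 (left) and Gimap7 (right) in CPM against the summed level of 17 naive and quiescent T cell genes in CPM (all axes from 0). Each point is a library, colored by group, with its replicate number. In Ag 1 and Ag 4 (7286 and 7524 on the horizontal axis) Gimap3 is at 1116 and 1278, level with or above the Naive libraries, and Gimap7 is at 290.0 and 307, among the Ag and Ag+Costim libraries.

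Gimap7 did not follow the 5 spread genes. In Ag 1 and Ag 4, where Gimap3 was in or above the Naive range, Gimap7 was at 290.0 and 307 CPM, within the range of the other Ag libraries and above all Naive libraries. Gimap4 in these libraries was at 1308 and 1518 CPM, above the highest Naive library. The Naive library with the least of the naive T cell genes, Naive 5, had the highest Gimap7 and Gimap4 and the lowest Gimap1, Gimap3, Gimap5, Gimap6, Gimap8 and Gimap9 of its group. It was also the library with the highest summed myeloid markers, mostly S100a8 and S100a9.

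The 17 naive and quiescent T cell genes were themselves read in edgeR's fit. In Ag against Naive 6 of 17 were called lower (3.66% of all genes) and none higher, with a median log2 fold change of −0.86 (0.08 over all genes), and the largest falls were those of Il7r (631 ± 228 to 152 ± 88.8 CPM, FDR = 0.00874) and Satb1 (−1.92 ± 0.33, FDR = 0.00874). Against Naive, 15 of 17 in Ag+Costim were called lower (23.6% of all genes) and none higher, with a median of −1.35 (−0.08 over all genes), led by Bach2 (−2.83 ± 0.48, FDR = 0.00237) and Il7r (−2.82 ± 0.35, FDR = 0.000954). Between Ag+Costim and Ag edgeR called none, 9 of 17 had an unadjusted p under 0.05 (26.8% of all genes), and the median was −0.66 (−0.10 over all genes). The lowest p there were those of Bach2 (−1.68 ± 0.46, FDR = 0.0807) and Btg1 (−2.01 ± 0.55, FDR = 0.0807).

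The summed level of the family was 3921 ± 334 CPM in Naive, 3959 ± 912 CPM in Ag and 3520 ± 288 CPM in Ag+Costim, and the 3 ranges overlapped. Within the sum, Gimap4 supplied 30.0% ± 5.24 of Naive counts, 35.6% ± 6.27 of Ag counts and 43.3% ± 1.60 of Ag+Costim counts. Gimap3 supplied 24.9% ± 3.86, 18.9% ± 5.06 and 15.6% ± 0.796, and Gimap7 4.21% ± 1.53, 7.89% ± 1.68 and 7.77% ± 0.562 (mean ± SD, n = 5). The ratio of Gimap4 to Gimap3 counts, which no scaling of libraries can alter, ran from 0.933 to 2.03 in Naive, from 1.17 to 2.87 in Ag and from 2.54 to 3.12 in Ag+Costim. That of Gimap7 to Gimap6 ran from 0.140 to 0.413 in Naive, from 0.306 to 0.565 in Ag and from 0.445 to 0.569 in Ag+Costim. For both ratios Naive and Ag+Costim did not overlap, and the highest Naive value was that of Naive 5. The ratios were chosen after the values were seen and are given without a test.

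**Figure D4:**
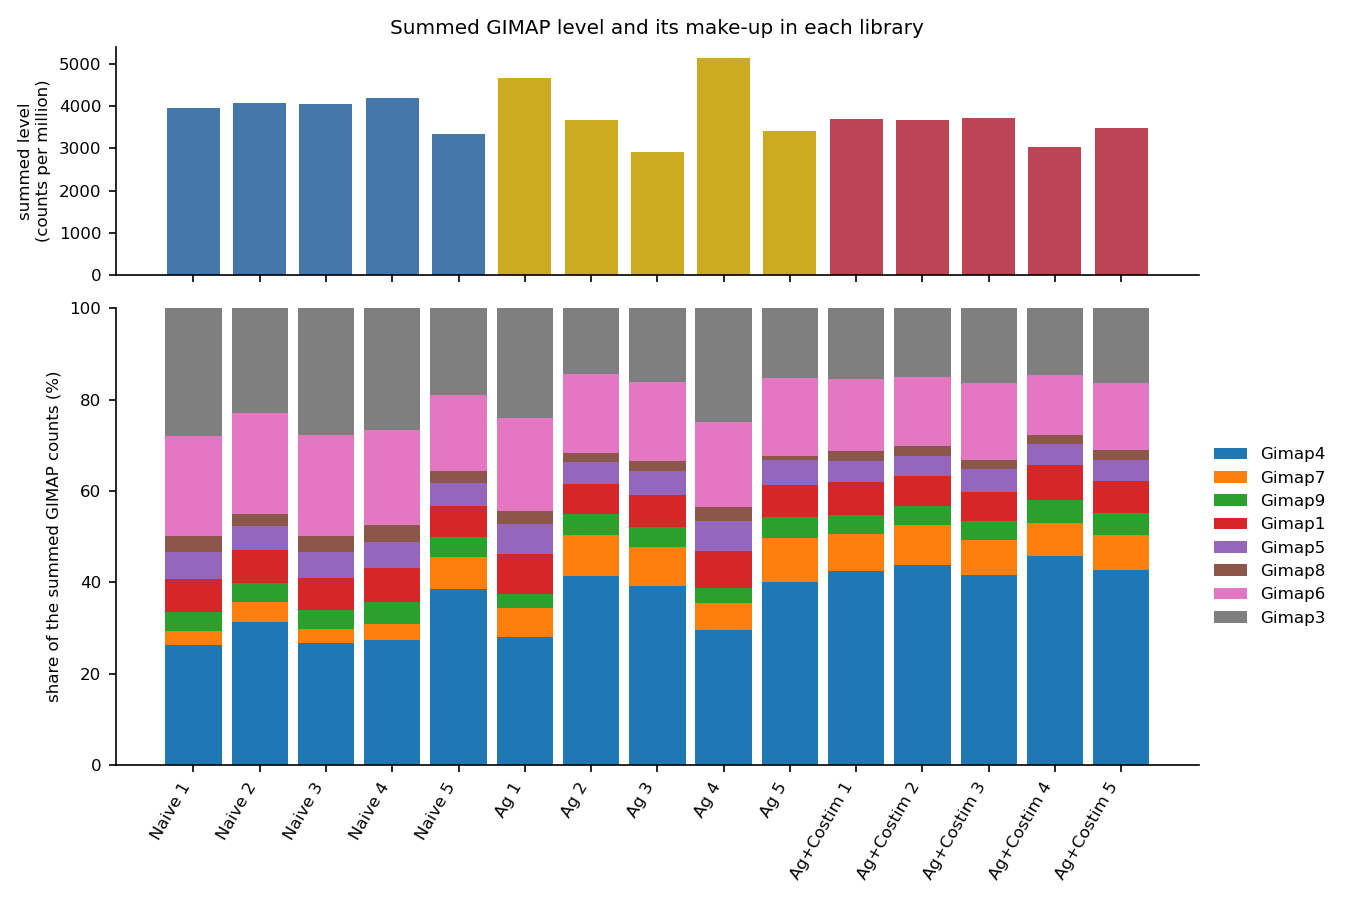
Summed level of the 8 GIMAP genes in CPM (top, bars from 0) and the share of each gene in that sum in percent (bottom) for the 15 libraries. Gimap4 takes 26.2% to 38.6% in Naive and 41.7% to 45.8% in Ag+Costim, and its 28.1% and 29.5% in Ag 1 and Ag 4 lie within the Naive range.

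The start-site regions of the 4 called genes are shown next, since the results above turn on these genes. Each is the 300 bases from 250 before to 50 after the RefSeq gene start (GRCm38.p6), 5′ to 3′ on the gene's own strand. Capitals mark matches, on either strand, to short core letters of factors active in T cells: TGTGGT for RUNX, AGGAAG for ETS, CACCC for KLF, CTTTGA for TCF/LEF and GTAAACA for FOXO, and TATAAA for the TATA box. No 2 matches overlapped.
Gimap4 (chr6:48684328-48684627, + strand): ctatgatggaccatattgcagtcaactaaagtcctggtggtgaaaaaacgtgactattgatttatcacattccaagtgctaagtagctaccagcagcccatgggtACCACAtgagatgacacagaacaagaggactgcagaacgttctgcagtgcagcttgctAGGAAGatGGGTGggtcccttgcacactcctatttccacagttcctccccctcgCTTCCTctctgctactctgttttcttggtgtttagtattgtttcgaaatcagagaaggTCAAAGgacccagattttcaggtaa
Gimap7 (chr6:48718371-48718670, + strand): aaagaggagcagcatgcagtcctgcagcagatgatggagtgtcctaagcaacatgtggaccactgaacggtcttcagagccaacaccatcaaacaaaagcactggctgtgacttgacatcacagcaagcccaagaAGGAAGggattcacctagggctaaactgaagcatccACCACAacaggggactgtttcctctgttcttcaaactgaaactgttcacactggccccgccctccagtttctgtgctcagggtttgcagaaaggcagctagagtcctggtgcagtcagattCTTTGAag
Gimap3 (chr6:48770802-48771101, − strand): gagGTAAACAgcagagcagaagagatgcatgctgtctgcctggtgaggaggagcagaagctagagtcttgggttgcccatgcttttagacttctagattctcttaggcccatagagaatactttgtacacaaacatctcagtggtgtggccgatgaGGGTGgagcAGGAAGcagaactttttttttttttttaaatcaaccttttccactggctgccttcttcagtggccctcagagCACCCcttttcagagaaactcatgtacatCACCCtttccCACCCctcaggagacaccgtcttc
Gimap6 (chr6:48708195-48708494, − strand): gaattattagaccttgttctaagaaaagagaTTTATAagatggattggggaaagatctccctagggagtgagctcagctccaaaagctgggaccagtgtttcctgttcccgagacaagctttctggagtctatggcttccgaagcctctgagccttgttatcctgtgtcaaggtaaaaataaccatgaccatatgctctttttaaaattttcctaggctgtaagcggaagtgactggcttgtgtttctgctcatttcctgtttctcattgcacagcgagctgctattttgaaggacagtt
Of 32851 mouse start-site regions of this length, 35.4% held the ETS letters, 57.5% the KLF letters, 16.8% the RUNX letters, 16.0% the TCF/LEF letters, 13.6% the TATA box letters and 3.65% the FOXO letters. Among the 8 genes, all found in that RefSeq table and Gimap8 with 2 regions, 7 held the ETS letters, 5 the KLF letters, 3 the RUNX letters (Gimap4, Gimap7 and Gimap1), 2 the TCF/LEF letters and 1 each the FOXO and TATA box letters. The TCF/LEF letters were in Gimap4 and Gimap7, the genes that rose, and in both lay after the start. The FOXO letters were in Gimap3, which also had 4 matches to the KLF letters, and Gimap6 held only the TATA box letters, 219 bases before the start. These matches describe the letters and say nothing of binding. The 9 regions held 2 to 8 CpG dinucleotides, beside a median of 7 over all regions.

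Other genes of the cluster were mostly low. Gimap1os, the antisense partner of Gimap1, was at 49.98 to 95.01 CPM in Naive, 35.2 to 90.9 CPM in Ag and 35.5 to 43.0 CPM in Ag+Costim, with no overlap between Naive and Ag+Costim, and was called lower in Ag+Costim against Naive (log2 fold change −0.75 ± 0.22, FDR = 0.0193). Since strand was not marked, its reads and those of Gimap1 cannot be told apart. Gm28053, a transcript that shares sequence with several members, was at 6.22 to 18.2 CPM in the 15 libraries and was not called in any comparison. It came nearest in Ag+Costim against Naive (log2 fold change 0.51 ± 0.20, FDR = 0.0535), and had 0.55 ± 0.20 (FDR = 0.114) in Ag+Costim against Ag. The noncoding genes Gm44226 and 4833403J16Rik reached at most 3.35 and 6.11 CPM and were not called.

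Outside the cluster, 21 protein-coding genes lay within 500 kb on either side and 12 were tested. In Ag against Naive 1 of 12 was called lower, where 3.66% of all genes were, and none higher. It was Tmem176a, 70.1 kb past the cluster (log2 fold change −1.83 ± 0.44, FDR = 0.0263). Its neighbour Tmem176b came next and was not called (−1.27 ± 0.37, FDR = 0.0547). Against Naive, Ag+Costim had 4 of 12 lower, where 23.6% of all genes were, and none higher, among them Tmem176a (−1.98 ± 0.43, FDR = 0.00646) and Krba1 (−1.48 ± 0.34, FDR = 0.00724). Between Ag+Costim and Ag none was called, the lowest p being those of Zfp467 (−1.31 ± 0.53, FDR = 0.139) and Tra2a (0.37 ± 0.18, FDR = 0.200). In Ag+Costim against Naive, where Gimap7 and Gimap4 were called higher, none of the 12 neighbours or the other 4 tested genes of the cluster was. Of all genes tested, 21.0% were called higher there.

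**Figure D5:**
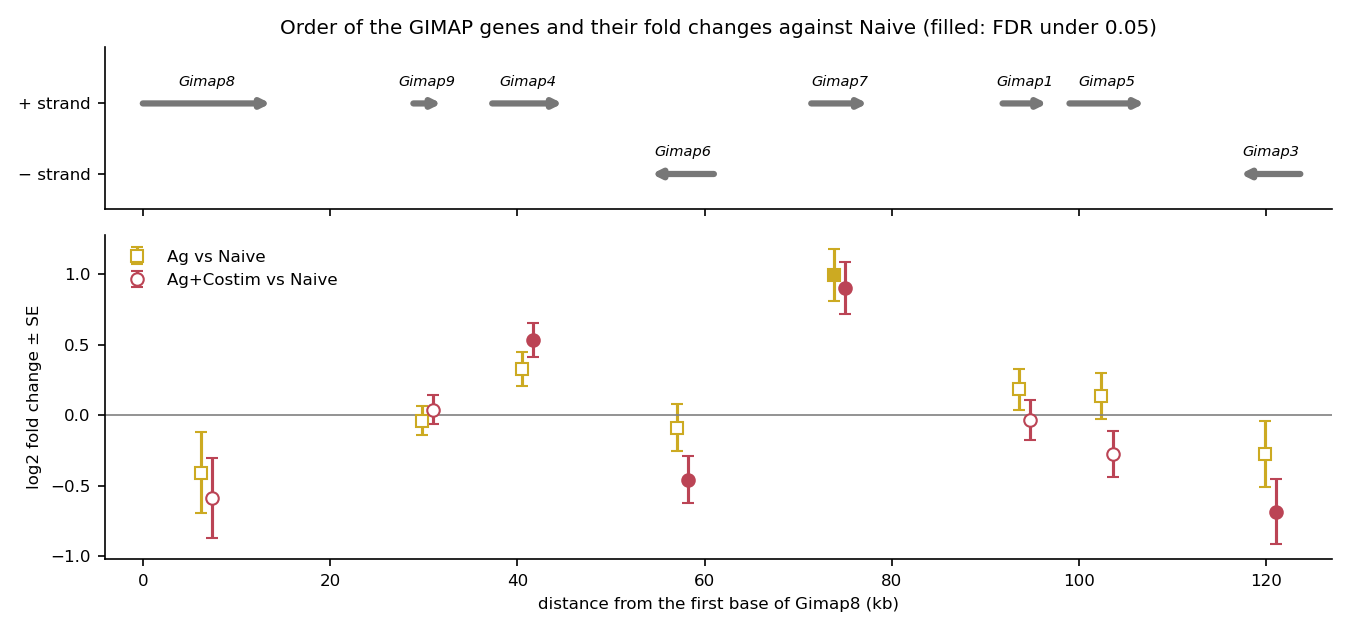
The 8 GIMAP genes along the chromosome as distance in kilobases from the first base of Gimap8 (top, arrows give strand and extent), and their log2 fold change ± SE in Ag and Ag+Costim against Naive (bottom, filled where FDR is under 0.05). Gimap6, which fell in Ag+Costim, sits between Gimap4 and Gimap7, which rose.

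Transcript make-up within each gene was compared with edgeR's test of usage over 7501 genes of at least 2 tested transcripts. None of the 8 genes passed in any comparison. The lowest FDRs were 1.00 in both Ag against Naive and Ag+Costim against Ag and 0.292 in Ag+Costim against Naive, where 1 gene, Gimap6, had an unadjusted p under 0.05, a share of 8 near the 13.3% of all genes. Over all genes 1.31%, 1.75% and 2.20% were called in the 3 comparisons. Limma's diffSplice called Gimap6 and Gimap7 in Ag+Costim against Naive, where it called 16.8% of all genes. In the other comparisons it called none of the 8 in Ag against Naive (4 at an unadjusted p under 0.05, as were 18.9% of all genes, with 2.20% called) and none in Ag+Costim against Ag (0 unadjusted, against 11.8% of all genes, with 0.773% called).

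The transcripts behind these values were minor. Gimap6-202, a longer coding transcript, made up 5.11% to 23.9% of Gimap6 counts in Naive, 2.58% to 8.69% in Ag and 3.12% to 5.05% in Ag+Costim. Gimap7-202, annotated as a retained intron, made up 5.64% to 22.3% of Gimap7 counts in Naive, 2.74% to 10.7% in Ag and 2.85% to 4.35% in Ag+Costim. For both, Naive 5 had the lowest Naive share, just above the highest in Ag+Costim. The most used transcripts were Gimap3-202 (93.6% of all counts of its gene), Gimap7-201 (93.4%), Gimap6-201 (90.9%), Gimap9-201 (85.2%), Gimap5-201 (78.2%), Gimap1-201 (75.2%), Gimap8-201 (64.8%) and Gimap4-202 (63.4%). Gimap4-206, annotated as a target of nonsense-mediated decay, took 26.6% of Gimap4 counts.

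GIMAP proteins are known to meet Bcl-2 family proteins, the autophagy proteins of the GABARAP and LC3 family, and the kinase GSK3β, and 13 such partner genes were followed. In Ag against Naive 1 of 13 was called lower (3.66% of all genes) and none higher: Bcl2, which protects cells from apoptosis, went from 317 ± 134 to 73.8 ± 48.4 CPM (log2 fold change −2.06 ± 0.41, FDR = 0.0145). The median log2 fold change of the list was 0.06, beside 0.08 over all genes. Ag+Costim against Naive had 3 of 13 higher and 3 lower, near the 21.0% and 23.6% of all genes, with a median of −0.01 beside −0.08. Bcl2 fell to 34.5 ± 10.1 CPM (−3.04 ± 0.43, FDR = 0.00130) and Bcl2l11, which encodes the killer protein Bim, fell from 47.0 ± 9.06 to 15.4 ± 4.44 CPM (−1.45 ± 0.47, FDR = 0.0260). Bak1, a pore-forming killer protein, rose (1.34 ± 0.27, FDR = 0.00457), as did Gabarapl1, of the autophagy proteins (1.00 ± 0.32, FDR = 0.0238). Between Ag+Costim and Ag none was called, 4 of 13 had an unadjusted p under 0.05 (26.8% of all genes), the median was −0.14 beside −0.10, and the lowest p were those of Bcl2l11 (−1.51 ± 0.47, FDR = 0.0856) and Bak1 (0.80 ± 0.27, FDR = 0.0930).

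How alike the members were is described by Pearson's r over the 15 libraries, which share the group differences and their depths. With group means removed, log2 CPM of Gimap3 and Gimap5 had an r of 0.97, Gimap1 and Gimap5 0.93 and Gimap4 and Gimap7 0.89, and Gimap3 and Gimap5 share some reads. Set against the mean pattern of the 8 genes, r was 0.90 for Gimap1, 0.88 for Gimap5, 0.78 for Gimap6, 0.71 for Gimap3, 0.51 for Gimap8, 0.21 for Gimap9, 0.03 for Gimap7 and −0.01 for Gimap4. Each member is itself part of that mean, which raises its r. With that limit, the mean pattern was most like those of Gimap1, Gimap5, Gimap6 and Gimap3. In all, 11325 genes with a mean of at least 5 CPM were ranked, the 8 members among them. The 10 other genes most like the mean pattern, with r from 0.86 to 0.90, were Gpr171, Chmp1a, Pdrg1, H2-Q4, Trac, Fam32a, Trbc2, Yipf3, Nop53 and Atp6v1d. Trac and Trbc2 encode constant regions of the T cell receptor, and none of the 10 was called in any comparison by edgeR.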

How the data were processed

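RNA from 15 CD8+ T cell samples was made into libraries with SMART-Seq v4 and Nextera XT and read as single 50-base reads. Per the labels, the authors aligned to mm10 with HISAT2 2.1.0, used SAMtools 1.9 and obtained estimated counts per gene and transcript with StringTie 2.1.0, deposited as whole numbers without normalization. Sequenced read counts, percent aligned and input amount were taken per the file headers of the sequencing core's table. The FPKM table the authors deposited was only compared between columns, of which Ag 1 and Naive 5 were identical, and gave no result. Entries were matched to GENCODE M21 by identifier (55536 of 81881), and those named by a number alone (0.0818% of counts) were left out.

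Genes were filtered with filterByExpr (17366 kept), scaled by TMM and tested with edgeR 4.0.16 (R 4.3.3), robust quasi-likelihood, over all 15 libraries with 1 coefficient per group. FDR is the Benjamini-Hochberg adjusted p over all genes tested, called under 0.05, and SE is that of the log2 fold change. Printed CPM and the overlap of groups use total counts per library without TMM, so a ratio of mean CPM can differ slightly from the fitted fold change. Usage was tested with diffSpliceDGE. Fits were tested on simulated counts. Alternatives were DESeq2 1.42.0, limma 3.58.1 (voom, diffSplice), other scalings and filters, lane, the replicate block and left-out libraries. Leaving out both Ag 3 and Naive 5, and library sizes over all annotated genes, were added after seeing the data. Alignments used Biopython 1.88, and promoters came from RefSeq (GRCm38.p6).

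The GIMAP genes, lists, markers and motifs were chosen with earlier results of these data known. From the list of naive and quiescent T cell genes, 1 further gene is not reported here and was left out of its counts and sums. All 8 members are named, other cluster genes with at least 10 counts, the 2 neighbours of lowest p per comparison, the 10 genes most alike, and per list up to 2 called genes per direction with the largest change, or the 2 of lowest p. Counts have no molecular identifiers, and the depth of each library bounds counting error only. No pair of libraries of a group agreed within sampling noise.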

Additional observations from a re-analysis of the deposited data

Results flagged for a closer look

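In the Naive group, Naive 5 stood apart from the other 4 libraries, by Dixon's test at the 95% level, in 2 of 27 sets of 5 values examined, a number near what chance gives at about 1 in 20. Its Gimap6 level was 553 CPM, with the next lowest Naive library at 862 CPM (a gap of 0.897 of the group's range). Its summed GIMAP level was 3343 CPM, with the next at 3960 CPM (0.722 of the range). Naive 5 was also the library with 1046 CPM of myeloid markers and the least of the 17 naive and quiescent T cell genes in its group, 4879 CPM, and their part in these values was not tested. Without Ag 3 and Naive 5, the Gimap6 log2 fold change in Ag+Costim against Naive was −0.47 (edgeR FDR = 0.0131).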

How the results depend on the processing

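The main fit has 5 libraries per group, and fits that leave out libraries or keep 1 lane have fewer in some groups. Lane separates Ag from Naive, and the shallowest library has 4865952 counts, which is ample for these genes (at least 303 counts each). Gimap7 and Gimap4 were higher than Naive in Ag+Costim in every fit run, and called in all but those with lane as a term (0 members higher, 0 lower) and, for Gimap7, lane 3 alone (1 higher). Members called higher in Ag against Naive were 2 with DESeq2, voom or without both Ag 3 and Naive 5, and 0 with no filter, only the 10 libraries, or lane as a term. Members called lower in Ag+Costim against Naive were 4 with voom or only the 10 libraries, and 0 with no filter, lane as a term, or library sizes over all annotated genes. With voom, Ag+Costim against Ag had 1 higher and 5 lower, and limma's diffSplice called 2 members in Ag+Costim against Naive. Leaving out 1 library gave 1 to 2 higher in Ag against Naive and 0 to 3 lower in Ag+Costim against Naive, and changed no other count of members. The cause was not tested.

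The main fit did not treat replicate numbers as pairs. Deviations of same-numbered libraries correlated from −0.324 to 0.470 (median 0.028), and 5 of 15 pairs were above 0.1. Those of the 60 other pairs ran from −0.594 to 0.493 (median −0.031). Whether the numbers pair the samples cannot be decided from these values. With the replicate block, 1 member was lower in Ag+Costim against Naive in place of 2, and no other count of members moved. Over all genes, calls in Ag against Naive (529 higher, 636 lower) became 1258 and 1411 with DESeq2, 1706 and 1772 with voom, 2618 and 1327 without both Ag 3 and Naive 5, 49 and 159 with no filter, 0 and 6 with only the 10 libraries, and 0 and 0 with lane as a term. In Ag+Costim against Ag (5 and 1) they became 664 and 1869 with DESeq2, 4997 and 4982 with voom, and 498 and 491 without both. In Ag+Costim against Naive (3648 and 4107) they became 258 and 685 with lane as a term, 6476 and 7169 with voom, 2409 and 1749 with no filter, and 3016 and 5102 with library totals alone, which moved the median of all genes from −0.08 to −0.23 (log2).

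Per length, using union exons lowered the mean over 15 libraries to 89.5 for Gimap1, 736 for Gimap4, 49.0 for Gimap5, 198 for Gimap6, 106 for Gimap7 and 98.1 for Gimap9 (from 203, 934, 154.5, 416.5, 198 and 135 CPM per kilobase). It moved Gimap3 by less than the spread between libraries, so that Gimap3 passed Gimap6, and Gimap7 and Gimap9 passed Gimap1. Signs turned only for log2 fold changes that were not called. In Ag against Naive these were Gimap5 with lane as a term (−0.036), Gimap6 with voom (0.013) and Gimap9 without both libraries (0.036). In Ag+Costim against Ag they were, with no filter, Gimap1 (0.012), Gimap7 (0.16) and Gimap8 (0.051), and Gimap7 with voom (0.094), lane as a term (0.014) and lane 2 alone (0.028). In Ag+Costim against Naive they were Gimap1 with no filter (0.14), without both libraries (0.0026) and with sizes over all genes (0.028), and Gimap9 with library totals alone (−0.12) and only the 10 libraries (−0.017). Leaving out 1 library, Gimap6 (−0.18 to 0.0040) and Gimap9 (−0.094 to 0.013) in Ag against Naive, Gimap7 (−0.15 to 0.072) and Gimap8 (−0.38 to 0.087) in Ag+Costim against Ag, and Gimap1 (−0.065 to 0.075) in Ag+Costim against Naive crossed 0.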

Other observations

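The interferon-inducible GTPases are a separate family of immune GTPases, and 15 of them (guanylate-binding proteins, the IRG proteins and Mx proteins) were followed beside the GIMAP genes. In Ag against Naive edgeR called none, 1 had an unadjusted p under 0.05 (28.7% of all genes), and the median log2 fold change was 0.01, beside 0.08 over all genes. Gbp3 came nearest, at 33.9 ± 12.6 CPM in Naive and 54.3 ± 5.30 CPM in Ag (FDR = 0.0517). In Ag+Costim against Naive 1 was higher and 3 lower, against 21.0% and 23.6% of all genes, with a median of −0.23 beside −0.08. Gbp3 rose to 63.0 ± 9.28 CPM (log2 fold change 1.03 ± 0.22, FDR = 0.00598), Gbp9 fell from 138 ± 51.3 to 29.9 ± 9.61 CPM (FDR = 0.00886) and Gbp8 from 77.1 ± 25.9 to 22.4 ± 4.72 CPM (FDR = 0.0144). Between Ag+Costim and Ag none was called and 2 had an unadjusted p under 0.05 (26.8% of all genes). The summed level of the 15 was 1224 and 1241 CPM in Ag 1 and Ag 4 and 551 to 688 CPM in the other Ag libraries, the same order of libraries as for Gimap3, Gimap6, Gimap5, Gimap1 and Gimap8 in their 2 highest.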
